A study of Mus musculus with 65 samples.

Results

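The genes Klf1, Nfe2, Klf3, Foxo3 and E2f2 encode regulators of red cell formation, and the CTCF and TAL1 occupied sites in and around them were collected from every peak list of a mouse ChIP-seq study of sheared chromatin length. A site was kept when any part of it lay in the gene body, as given by GENCODE, or within 50 kb on either side. Peaks of one factor that shared at least 1 bp were merged across libraries into a site. This gave 65 sites, 46 for CTCF and 19 for TAL1, of 108293 merged sites in the whole genome. They were built from 681 of 544509 deposited peaks.

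The study sheared fixed chromatin to different lengths before immunoprecipitation and recorded the mean length of the unenriched chromatin, together with a subjective assessment of each library as Pass, Low pass or Fail. Peak lists of 53 libraries were analysed, 34 for CTCF and 19 for TAL1. The cells of 23 CTCF libraries and of all 19 TAL1 libraries were G1E-ER4+E2, a mouse erythroid line derived from embryonic stem cells that lacks its own GATA1 and carries GATA1 fused to the estrogen receptor hormone-binding domain, so that 24 h of estradiol starts maturation. All of these libraries therefore came from 1 line in 1 hormone-treated state, with no untreated group. The paper reports that the number of cells also varied among them, and the fixation method among those of its retrospective analysis. Neither entered the comparisons below. The other 11 CTCF libraries came from bone marrow cells sorted from male C57BL/6 mice of 5 to 8 weeks. They comprised LSK cells (lineage-negative, Sca1-positive, Kit-positive stem and progenitor cells, 2 libraries), the common myeloid, granulocyte-monocyte and megakaryocyte-erythrocyte progenitors CMP, GMP and MEP, the erythroid stages CFUE and ERY (1 and 2 libraries), and the megakaryocytic stages CFUMk and iMK (1 and 2 libraries). TAL1 was not measured in the sorted cells. Peak lists hold no RNA values with which the markers of the cells could be checked, so the labels of the cells were taken as given.

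In G1E-ER4+E2 the assessments were 14 Pass, 2 Low pass and 7 Fail for CTCF, and 10 Pass, 4 Low pass and 5 Fail for TAL1. The CTCF libraries of the line had chromatin of 199 to 302 bp when assessed as Pass and of 168 to 329 bp when assessed as Fail, with the length of 2 Fail libraries undetected. For TAL1 the corresponding lengths were 190 to 298 bp and 166 to 297 bp. Of the sorted cells, CMP and GMP were Low pass and the other 9 libraries Pass. The lists held from 193 to 36481 peaks. They give no read depth, so that the depth behind a missing peak is unknown and a site without a peak is not shown to be unbound. No 2 libraries shared over 0.165% of their peaks with identical borders. The authors made the assessments by looking at signal tracks of well-studied loci, so a comparison of peak calls between assessments is not independent of how the groups were formed.

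CTCF is a zinc finger protein that occupies a long, directional DNA motif, marks the borders of many chromatin domains and insulates enhancers from genes beyond them. TAL1 is a basic helix-loop-helix protein that pairs with E proteins on short E-box words and works in erythroid cells in one complex with GATA1, LMO2 and LDB1, often where an E-box lies next to a GATA word. KLF1 activates the adult beta-globin gene and much of the red cell program. NFE2 is the large subunit of NF-E2, which pairs with small MAF proteins at globin enhancers and in megakaryocytes. KLF3 is a repressor that recruits CtBP and competes with KLF1 for CACCC sites. FOXO3 drives antioxidant and late maturation genes, and E2F2 takes part in the timing of division during terminal erythroid maturation.

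The sequences below are those of the TAL1 sites that every Pass library called, since the results turn on them. They were read from GRCm38/mm10 on the plus strand. Capitals mark GATA words (AGATAA or TGATAA) and E-box words (CAGATG or CAGCTG) on either strand, and, in the Nfe2 gene, the composite word, CTG followed after 8 bases by AGATAA, whose spacer is left in lower case.
Nfe2 start, chr15:103258512-103258577: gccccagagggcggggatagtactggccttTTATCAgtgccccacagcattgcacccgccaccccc
Nfe2 internal starts, chr15:103251767-103251858: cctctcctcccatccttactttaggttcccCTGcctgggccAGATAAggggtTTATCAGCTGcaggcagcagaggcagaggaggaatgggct
E2f2 intron, chr4:136178104-136178218: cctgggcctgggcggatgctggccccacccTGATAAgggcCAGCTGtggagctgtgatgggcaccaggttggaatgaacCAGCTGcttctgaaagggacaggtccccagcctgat
Foxo3 intron, +11.5 kb, chr10:42265146-42265265: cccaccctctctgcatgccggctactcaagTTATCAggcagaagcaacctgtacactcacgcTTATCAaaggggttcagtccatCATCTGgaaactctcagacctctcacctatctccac
Foxo3 intron, +32.2 kb, chr10:42244455-42244648: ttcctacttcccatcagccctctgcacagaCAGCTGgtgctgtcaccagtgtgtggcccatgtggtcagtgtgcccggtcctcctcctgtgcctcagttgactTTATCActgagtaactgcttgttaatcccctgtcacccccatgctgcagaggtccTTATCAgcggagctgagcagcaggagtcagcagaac
Klf1, upstream part of the site, chr8:84901574-84901639: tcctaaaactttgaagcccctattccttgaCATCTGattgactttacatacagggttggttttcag
Klf1, up to the first base of the transcript, chr8:84901829-84901928: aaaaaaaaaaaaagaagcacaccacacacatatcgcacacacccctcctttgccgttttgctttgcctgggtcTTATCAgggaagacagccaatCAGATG

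Distances are given from the 5' end of the gene body, positive in the direction of transcription. A reference site is one called in at least 50% of the Pass libraries of G1E-ER4+E2, and 9 of the 19 TAL1 sites and 21 of the 46 CTCF sites met this. Of the sites with any such call, that was 9 of 19 for TAL1 and 21 of 28 for CTCF, against 39.4% and 52.9% in the genome. The map of sites shows their positions around each gene.

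**Figure D1:**
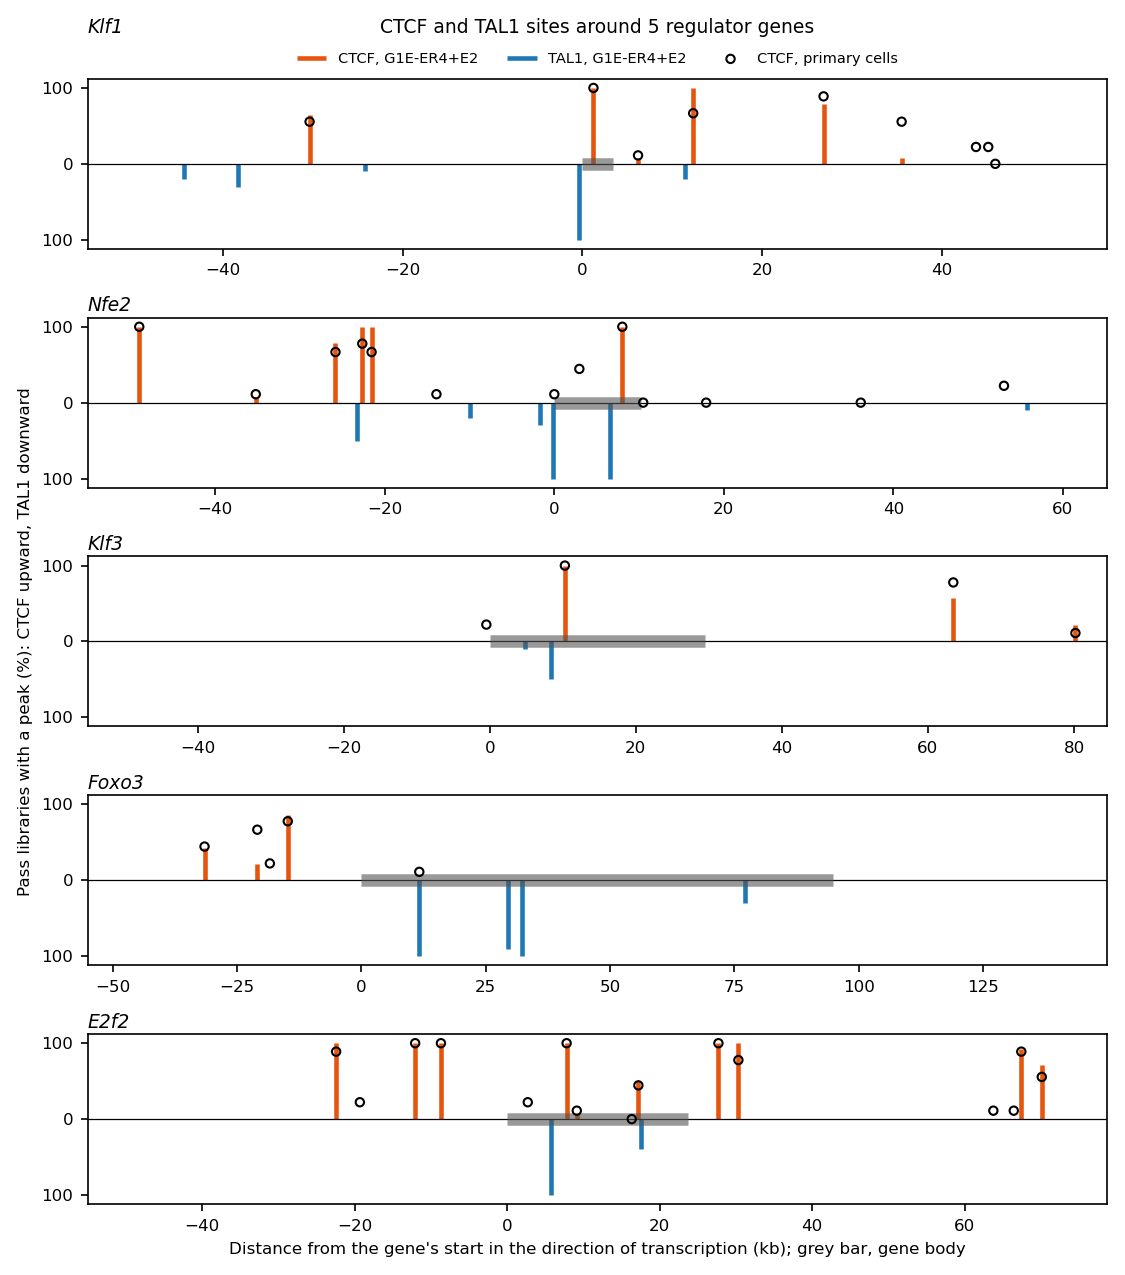
Sites around each gene by distance of the site centre from the gene's start (kb, in the direction of transcription; grey bar, gene body). Orange lines upward give the percentage of the 14 Pass G1E-ER4+E2 libraries with a CTCF peak, open circles the percentage of the 9 Pass primary libraries, and blue lines downward the percentage of the 10 Pass libraries with a TAL1 peak. Klf1 has a TAL1 site at its start and a CTCF site in every Pass library 1.2 kb into the gene, and the TAL1 sites of Foxo3 lie inside the gene while its CTCF reference site lies upstream.

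TAL1 occupied sites were found in the window of each of the 5 genes. Each of the 19 sites was called in a Pass library. Every one of the 10 Pass libraries called 6 of them, and 16.2% of the TAL1 sites of the genome with a Pass call were called in all 10. The 6 were 2 sites at starts of Nfe2, the site at the start of Klf1, 1 site in the E2f2 gene and 2 in the Foxo3 gene. Klf3 had no such site.

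The strongest TAL1 site was at the 5' end of Nfe2 (chr15:103257930-103259182), its centre 154 bp before the outermost transcript start. Its fold enrichment over input, as the authors' peak caller gave it, was 45.5 at the lowest, 67.0 at the median and 116.6 at the highest of the 10 Pass libraries. Ranked within each library, it stood between percentile 99.1 and 99.8 of all TAL1 peaks, so that every Pass library placed it near the top of its list. All 4 Low pass libraries called it, at 38.0, 31.3, 19.97 and 21.1-fold, and so did 2 of the 5 Fail libraries, at 15.1 and 43.2-fold. It was the only TAL1 site of the 19 with a peak in more than 1 Fail library.

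A second Nfe2 site (chr15:103251251-103252438) lay 6.6 kb into the gene, within 118 bp of a cluster of internal transcript starts. Its fold enrichment was 24.2, 36.6 and 81.1 at the lowest, median and highest Pass library, and its percentile within a library 90.6 to 98.2. The Low pass libraries gave 21.8, 20.7, 15.3 and 17.4-fold, and 1 Fail library 34.0-fold. This was the only reference site of the 9 with the composite word within 150 bp of its centre, where CTG precedes AGATAA by 8 bases and a second GATA word runs into an E-box a few bases on. The Nfe2 window held 4 weaker TAL1 sites. That in an intron of Copz1, 23.2 kb upstream, was called in 5 of 10 Pass libraries at 6.72, 11.7, 15.1, 9.14 and 14.4-fold, and the other 3 in 1 to 3 Pass libraries.

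At Klf1 the TAL1 site (chr8:84900786-84902399) covered the transcript start, with its centre 407 bp upstream. Fold enrichment was 20.1 at the lowest, 32.4 at the median and 72.9 at the highest Pass library, and the percentile 84.9 to 97.4. All 4 Low pass libraries called it, at 18.5, 16.8, 12.6 and 19.02-fold, and none of the 5 Fail libraries did. In the window from 250 bases before to 50 after the start that RefSeq gives (GRCm38.p6), the Klf1 promoter held 1 GATA word and 1 E-box word, printed above, the last base of the E-box being the first base of the GENCODE transcript. Both kinds of word occurred together in 5.88% of 32851 such promoters, a GATA word in 18.6% and an E-box word in 30.6%. The promoters of Klf3 and Foxo3 held neither word, and of the 2 listed for E2f2 one held 2 E-box words. The promoter of Nfe2 was not searched in this way. The other 4 TAL1 sites of the Klf1 window, in or near Farsa, Syce2 and Dnase2a, were each called in 1 to 3 Pass libraries.

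E2f2 carried 1 TAL1 site in every Pass library, in the gene 5.7 kb from its start (chr4:136177520-136178817). Fold enrichment was 22.2, 48.5 and 95.1 at the lowest, median and highest Pass library. The Low pass libraries gave 31.0, 20.8, 17.9 and 13.6-fold, and 1 Fail library 28.8-fold. It ranked second of the 19 sites by its median percentile of 97.6. A TGATAA word and 2 CAGCTG words lay near its centre. The other site in E2f2, 17.6 kb from the start, was called in 4 Pass libraries at 7.27 to 9.22-fold.

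The 3 reference sites of Foxo3 were inside the gene, 11.5, 29.4 and 32.2 kb from its start, and all were weaker. The site at 11.5 kb (chr10:42264729-42265742) was called in all 10 Pass libraries at 11.1, 13.9 and 32.5-fold (lowest, median, highest) and in no Low pass or Fail library. The site at 32.2 kb (chr10:42243829-42245170) was called in all 10 at 9.85, 14.9 and 31.4-fold and in 2 Low pass libraries at 12.5 and 10.4-fold. The site at 29.4 kb (chr10:42246872-42247779) was called in 9 Pass libraries at 6.73 to 26.6-fold, and none of the 3 words occurred within 150 bp of its centre. Their median percentiles were 64.1, 24.0 and 69.2 in that order of distance. No Pass library placed any of the 3 above percentile 84.4, and none placed the Klf1 start, the 2 Nfe2 start sites or the E2f2 site at 5.7 kb below 84.9. Klf3 had the weakest reference site, near an internal start 8.4 kb into the gene (chr5:64811288-64812063), with peaks in 5 Pass libraries at 5.25 to 15.4-fold and a median percentile of 8.44.

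**Figure D2:**
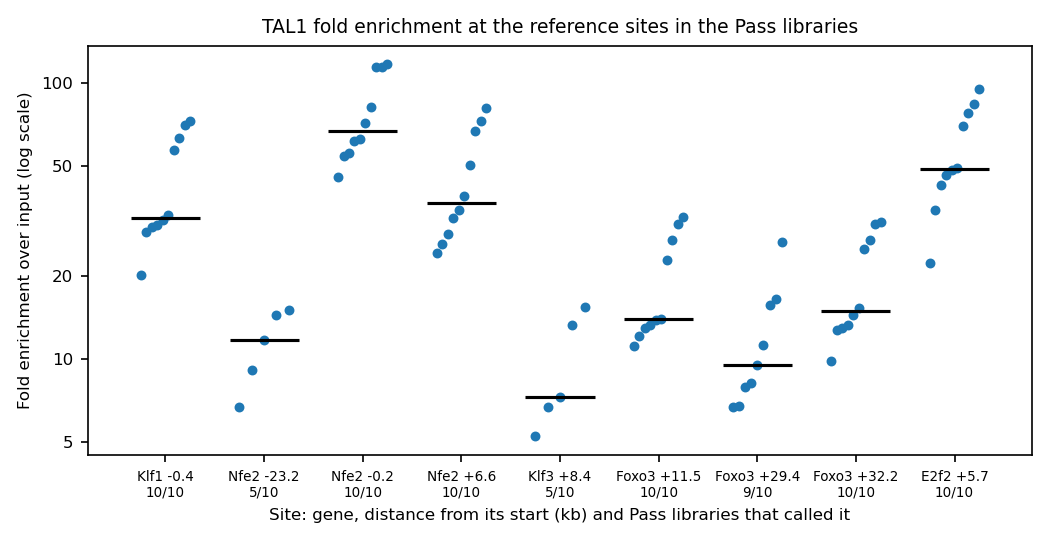
Fold enrichment over input (log scale) at the 9 TAL1 reference sites; each point is 1 Pass library of G1E-ER4+E2 and the bar is the median over those that called the site, whose number stands below. The Nfe2 start has the highest median at 67.0, and the Klf3 site the lowest at 7.3.

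The 10 TAL1 sites that were not reference sites rested on few libraries. The 3 Pass libraries with the longest lists, of 7868 to 9763 peaks, gave 19 calls at these sites (5, 7 and 7). The other 7 Pass libraries, with 2670 to 4486 peaks, gave 3 calls together. The part of list length in these calls was not tested.

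**Figure D3:**
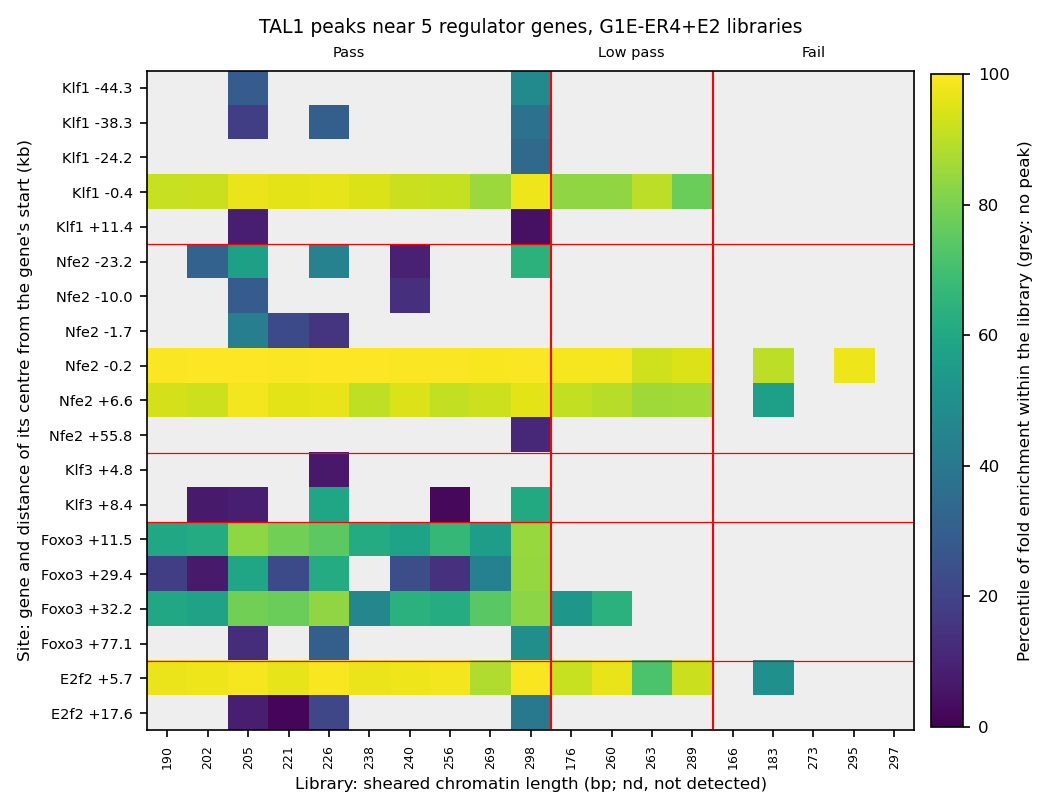
TAL1 peaks at the 19 sites (rows, gene and distance from its start in kb) in the 19 G1E-ER4+E2 libraries (columns, chromatin length in bp, grouped by assessment). Colour is the percentile of the peak's fold enrichment among all peaks of its library and grey is no peak. The rows of Nfe2 (2), Klf1 and E2f2 are filled in all Pass and Low pass libraries, while the Foxo3 rows are nearly empty outside the Pass libraries.

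Over the 9 reference sites, a GATA word lay within 150 bp of the centre at 5, against 75.4% of the 4567 TAL1 reference sites of the genome and 25.7% of windows of the same length 10 kb away. An E-box word was found at 6 of 9, against 49.9% and 33.4%. The composite word, with a spacer of 7, 8 or 9 bases, was found at 1 of 9, against 21.2% and 1.03%. The centre window of the Klf1 site held an E-box but no GATA word, the GATA word of its promoter lying further downstream in the same site.

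CTCF occupied sites were more numerous, 15 at E2f2, 13 at Nfe2, 9 at Klf1, 5 at Foxo3 and 4 at Klf3. A Pass library of G1E-ER4+E2 called 28 of the 46, and all 14 called 13 of these 28, against 21.6% of the 26323 CTCF sites of the genome with such a call. All 14 and all 9 Pass libraries of sorted cells called 8 sites, which CMP and GMP called as well. In the genome 5.27% of sites called in any Pass library were called in every one. The 8 were 4 at E2f2, 2 at Nfe2, 1 at Klf1 and 1 at Klf3. Foxo3 had none. They made up 8 of the 21 reference sites of the line, against 24.7% in the genome.

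The CTCF matches of these 8 sites are given as the DNA under the capitals, the best match to a matrix learned from the strongest CTCF peaks, with 10 bases on each side. They are read 5' to 3' on the strand of the match, from GRCm38/mm10.
Klf1 +1.2 kb, coding exon, minus strand, chr8:84903241-84903279: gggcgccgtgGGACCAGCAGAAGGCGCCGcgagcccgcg
Nfe2 +8.0 kb, intron, plus strand, chr15:103250367-103250405: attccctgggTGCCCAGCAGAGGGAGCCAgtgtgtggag
Nfe2 49.0 kb upstream, intron of Gm49482, minus strand, chr15:103307316-103307354: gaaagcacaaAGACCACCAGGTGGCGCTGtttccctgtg
Klf3 +10.3 kb, intron, minus strand, chr5:64813654-64813692: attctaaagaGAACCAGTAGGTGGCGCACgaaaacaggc
E2f2 12.1 kb upstream, between genes, minus strand, chr4:136160285-136160323: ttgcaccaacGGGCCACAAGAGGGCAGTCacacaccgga
E2f2 8.7 kb upstream, between genes, plus strand, chr4:136163660-136163698: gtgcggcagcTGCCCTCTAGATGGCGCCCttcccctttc
E2f2 +7.8 kb, near an internal start, minus strand, chr4:136180131-136180169: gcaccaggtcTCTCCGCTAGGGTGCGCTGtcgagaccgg
E2f2 +27.7 kb, between genes, minus strand, chr4:136200040-136200078: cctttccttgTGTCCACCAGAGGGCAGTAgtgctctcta

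At Klf1 this site (chr8:84902601-84903759) began 201 bases after the end of the TAL1 site, and its match lay in exon 2 of 3, in the coding sequence. Its CTCF fold enrichment was 10.1, 17.8 and 31.2 at the lowest, median and highest Pass library of G1E-ER4+E2. In the sorted cells it was 17.0 and 55.9 in LSK, 22.9 in MEP, 42.3 in CFUE, 19.8 and 30.3 in ERY, 75.7 in CFUMk, 26.8 and 53.7 in iMK, 84.0 in CMP and 97.6 in GMP. Within a library it stood at a median percentile of 87.2 in the 14 Pass G1E-ER4+E2 libraries (44.9 to 97.5) and of 97.7 in the 9 Pass primary libraries (90.5 to 98.9), and the ranges overlapped. One Low pass library of the line called it, at 13.35-fold, and no Fail library.

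The window of E2f2 was the densest, with 9 reference sites, 6 of them in all 14 Pass libraries. The site 8.7 kb upstream had the highest median percentile of the 46 in the line, 94.0, at a fold enrichment of 13.1, 20.2 and 56.2. The TAL1 site at 5.7 kb lay 791 bases from the CTCF site at 7.8 kb, whose match was near an internal start of the gene. The site 30.3 kb downstream was called in all 14 Pass libraries of the line and in 7 of 9 Pass primary libraries.

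At Nfe2, the site 8.0 kb into the gene (chr15:103249846-103250883) lay 367 bases from the second TAL1 site. Its fold enrichment was 11.8, 19.2 and 47.2 at the lowest, median and highest Pass library, and all 11 primary libraries called it at 12.9 to 57.4-fold. Both Low pass libraries and 1 Fail library called it too. A pair of sites in Copz1, 21.6 and 22.6 kb upstream, had peaks in all 14 Pass libraries of the line at medians of 10.1 and 11.4-fold, and in neither ERY library. Both were called in both LSK, GMP, MEP, CFUMk and both iMK libraries, and the site at 22.6 kb in CFUE as well. Neither stood among the 6000 strongest peaks of most libraries, the first in 2 and the second in 6 of the 14, and the 2 ERY lists held only 6629 and 8284 peaks. At the reference sites of the 5 genes, 5 of 21 were called in neither ERY library, against 48.2% of the 13938 reference sites of the genome.

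The reference site of Foxo3 was 14.8 kb upstream (chr10:42291103-42292060), with peaks in 12 of 14 Pass libraries at 8.80 to 16.8-fold. It was called in 7 of 9 Pass primary libraries. No CTCF reference site lay inside the Foxo3 gene, where a 1-library CTCF peak of ERY cells overlapped the TAL1 site at 11.5 kb. Klf3 had its constant site 10.3 kb into the gene (10.9, 15.9 and 40.4-fold in the line) and a weaker one 63.5 kb from the start, called in 8 of 14.

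The remaining reference sites were each missed by some Pass library of the line or the sorted cells. Near Klf1 they were 12.3 kb downstream at Dnase2a (14 of 14 Pass libraries of the line and 6 of 9 Pass primary libraries), 26.8 kb downstream in Mast1 (11 of 14) and 30.3 kb upstream at the start of Syce2 (9 of 14). Near Nfe2 a site 25.8 kb upstream, at Mir148b, was called in 11 of 14. Near E2f2 a site 22.5 kb upstream (chr4:136149495-136150498) was called in 14 of 14 at 7.43, 11.9 and 26.1-fold (lowest, median, highest), in both Low pass libraries of the line and in 8 of 9 Pass primary libraries. The others near E2f2 were in Asap3, 67.4 and 70.1 kb from the start (13 and 10 of 14), and in the gene at 17.2 kb (7 of 14), where it overlapped the weaker TAL1 site. At 2 other starts CTCF was seen in few libraries. A site 0.5 kb upstream of Klf3 was called in LSK (12.3-fold) and CFUMk (12.6-fold), and a site 9.1 kb into E2f2, near an internal start, in CMP, GMP, CFUMk and 1 library of the line at 10.3 to 13.9-fold.

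The 25 CTCF sites that were not reference sites comprised 7 with a call in some Pass library of the line, 13 called in Pass primary libraries alone and 5 called in no Pass library. A match to the matrix was found at 10 of those 13, and 2 of the 10 lay mostly in marked repeats, against 35.5% of such matches in the genome. All 22 sites called in at least 50% of the Pass primary libraries were also called in some Pass library of the line, whereas 11% of such sites in the genome were not. Of the 28 sites called in the line, 4 rested on 1 Pass library, against 21.8%, and of the 19 TAL1 sites 3 did, against 25.7%.

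**Figure D4:**
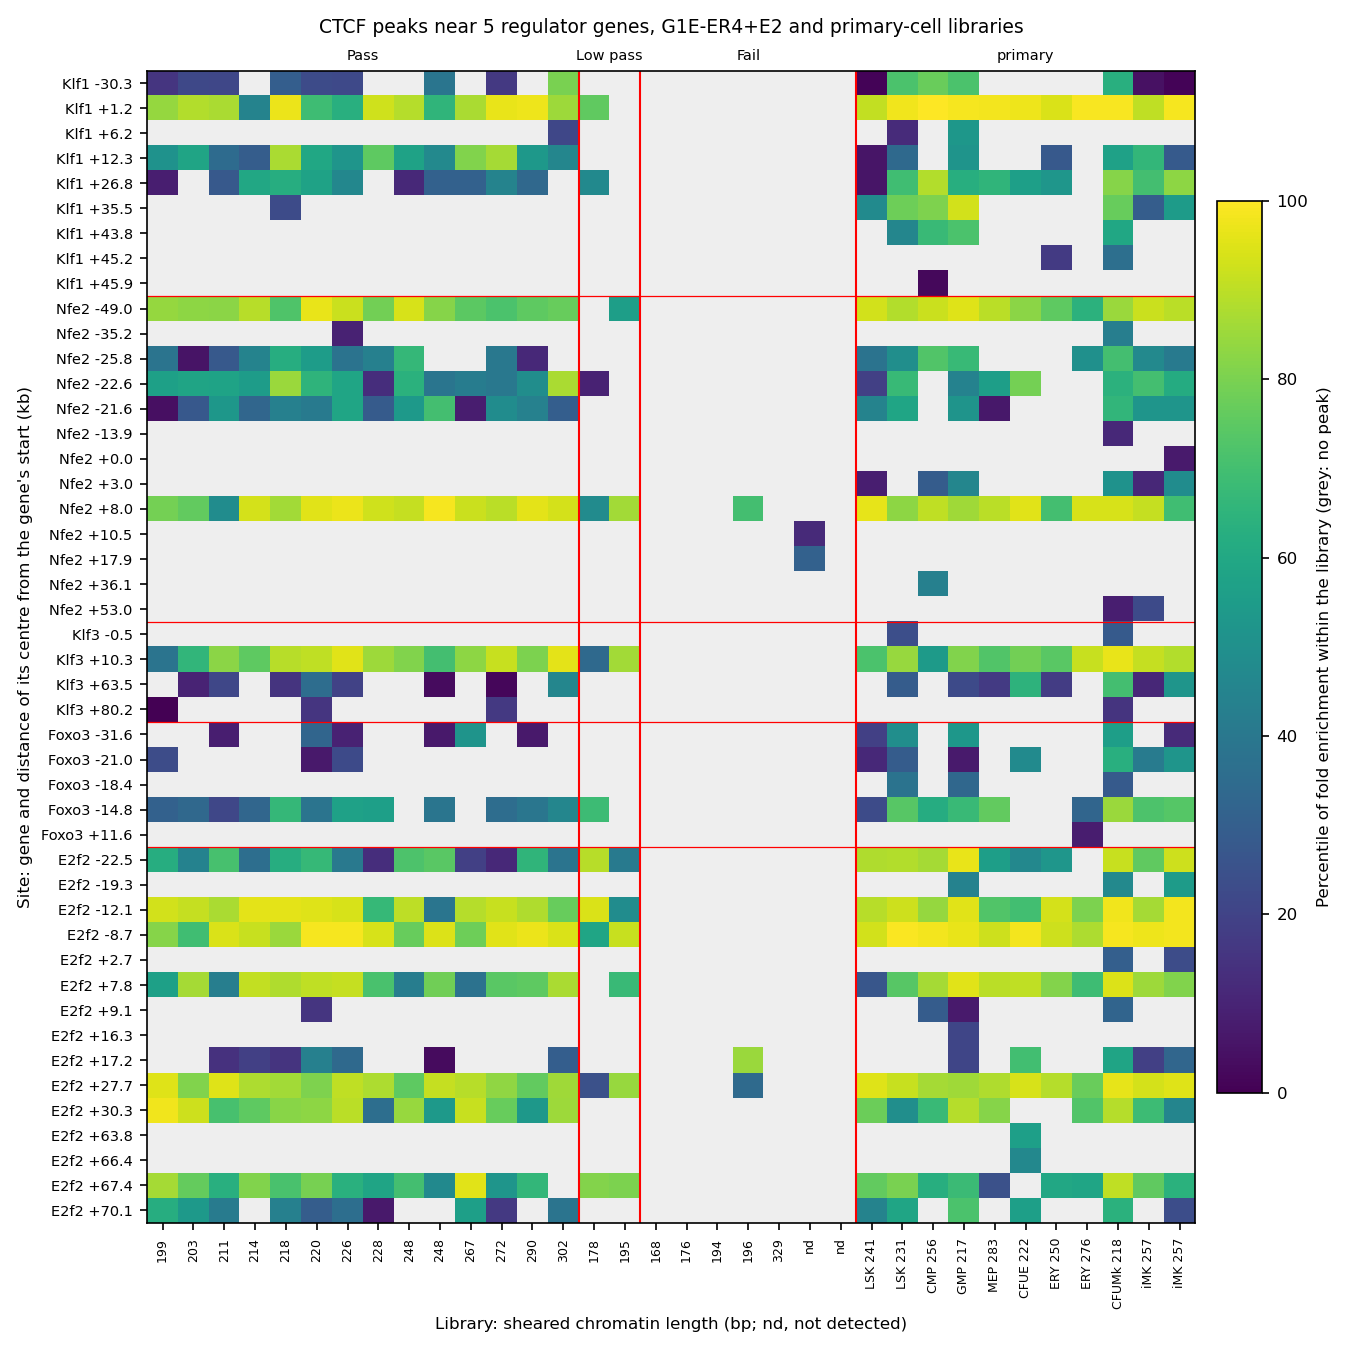
CTCF peaks at the 46 sites (rows, gene and distance from its start in kb) in the 23 G1E-ER4+E2 libraries, grouped by assessment and ordered by chromatin length (bp; nd, not detected), and in the 11 primary libraries by cell type. Colour is the percentile of the peak's fold enrichment among all peaks of its library and grey is no peak. The 8 rows filled across Pass and primary libraries are those at Klf1 (1.2 kb downstream), Nfe2 (8.0 kb downstream and 49.0 kb upstream), Klf3 (10.3 kb downstream) and E2f2 (12.1 and 8.7 kb upstream, 7.8 and 27.7 kb downstream), and the Fail columns are almost empty.

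All 21 CTCF reference sites held a match to the matrix, against 96.6% of the reference sites of the genome and 29.8% of windows of the same length 10 kb away. The match was on the minus strand at 14 and on the plus strand at 7. At 8 of the 21 it lay mostly in sequence that the reference marks as repeat, against 17.9% of the 13462 genome reference sites with a match. Of the 5 sites that no Pass library called, 1 held a match, against 7.98% of such sites in the genome and 3.98% of windows 10 kb away. Among all 46 sites, 5 matches were followed by the same 10 bases and were wholly in marked repeats. They are shown because only the first of them was a reference site.
Nfe2 21.6 kb upstream, 14 of 14 Pass, minus strand, chr15:103279936-103279974: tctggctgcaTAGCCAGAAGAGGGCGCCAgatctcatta
E2f2 19.3 kb upstream, 0 of 14, plus strand, chr4:136153287-136153325: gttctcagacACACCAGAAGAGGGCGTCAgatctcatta
Nfe2 13.9 kb upstream, 0 of 14, minus strand, chr15:103272240-103272278: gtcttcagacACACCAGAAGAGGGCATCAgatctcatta
Klf1 +6.2 kb, 1 of 14, minus strand, chr8:84908095-84908133: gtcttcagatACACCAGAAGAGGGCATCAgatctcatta
Nfe2 +36.1 kb, 0 of 14, minus strand, chr15:103222249-103222287: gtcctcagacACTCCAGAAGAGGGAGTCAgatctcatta

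Their matrix scores were 21.6 bits for the first and 15.2, 14.7, 14.7 and 11.2 bits for the other 4. The E2f2 site was called in GMP, CFUMk and 1 iMK library, the Nfe2 site at 13.9 kb in CFUMk, the Klf1 site in 1 LSK library and GMP besides 1 library of the line, and the Nfe2 site at 36.1 kb in CMP.

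The comparison of the line with the sorted cells asked whether the same CTCF sites were found in both. The paper gives a longer fixation for the sorted cells than for the line and describes the sorted progenitors as rare. Cell type and protocol therefore cannot be told apart in this comparison. The 14 Pass G1E-ER4+E2 libraries called 19.9 ± 2.70 sites near the 5 genes (SD, n = 14) and the 9 Pass primary libraries 22 ± 7.65 (SD, n = 9), a difference of -2.07 sites (exact permutation test over libraries, two-sided, p = 0.393). The numbers in the sorted cells followed no single level. They were 13 and 14 in ERY, 16 in MEP, 17 in CFUE, 23 and 27 in LSK, 24 and 28 in iMK and 36 in CFUMk, and 21 and 31 in the Low pass CMP and GMP. ERY had the shortest lists (6629 and 8284 peaks) and CFUMk the longest (36481). Of the 21 reference sites of the line, 20 were called in at least 50% of the Pass primary libraries too, against 85.4% of the 13938 reference sites of the genome.

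Site by site, Fisher's exact test on the number of libraries with a peak, adjusted by Benjamini-Hochberg over all 31665 sites tested, called 0 of the 36 sites tested near the 5 genes, where 4.66% of the genome's sites were called (0.55% more often in the line and 4.11% more often in primary cells). At an unadjusted p under 0.05 it gave 4 of these sites, against 24.1% of the genome. Of these, a site at the middle start of Nfe2 (3.0 kb into the gene, chr15:103255009-103255914) was called in 0 of 14 Pass libraries of the line and in 4 of 9 Pass primary libraries (Fisher's exact p = 0.0142, adjusted p = 0.110). Its peaks were in LSK (6.20-fold), CFUMk (21.5-fold) and both iMK libraries (7.87 and 17.2-fold), and in the Low pass CMP and GMP libraries (12.9 and 24.3-fold), with none in MEP, CFUE or ERY. A site at the start of Mast1, 35.5 kb downstream of Klf1 (chr8:84937072-84937818), had nearly the same distribution, with 1 of 14 against 5 of 9 (Fisher's exact p = 0.0183, adjusted p = 0.130). It was called in both LSK, CFUMk, both iMK, CMP and GMP libraries at 9.79 to 67.1-fold. The other 2 of the 4, 21.6 kb upstream of Nfe2 and 12.3 kb downstream of Klf1, were each called in 14 of 14 against 6 of 9 (exact p = 0.0474, adjusted p = 0.198). With CMP and GMP and the Low pass libraries of the line counted as well, the Nfe2 and Mast1 sites passed (0 of 16 against 6 of 11, adjusted p = 0.0197, and 1 of 16 against 7 of 11, adjusted p = 0.0281, both by Fisher's exact test). That made 2 of the 36 sites tested near the 5 genes, against 4261 of 35283 in the genome. MEP, CFUE and ERY, which had neither peak, had the shorter lists of the sorted cells, 6629 to 15002 peaks against 18945 to 36481. One LSK library with 28476 peaks lacked the Nfe2 peak too, as did the line's longest Pass list of 21986 peaks. Among the 6000 strongest peaks of each library, the Nfe2 site was found in no Pass library of the line and in no library of the sorted cells. The Mast1 site was found there only in the Low pass CMP and GMP libraries. With these 6000 peaks of each Pass library alone, the same test called 0 of the 18 sites tested near the 5 genes, against 1334 of 12639 in the genome. Neither the Nfe2 nor the Mast1 site had a Pass call at that length, so the part of list length at them was not tested.

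The comparison of assessments asked how far libraries of lower quality recover the sites of these genes. Each library was scored by the percentage of reference sites that it called, a Pass library never counting toward its own reference. Reference sites were chosen by their calls in Pass libraries, which fixes the direction, so these percentages are given as a description with no test. For CTCF it was 89.3% ± 8.84 in Pass libraries (SD, n = 14) and 12.2% ± 20.8 in Low pass and Fail libraries together (SD, n = 9). The difference was 77.2 percentage points. The 2 Low pass libraries called 52.4% and 42.9%, 1 Fail library 14.3%, and the other 6 Fail libraries none. Over all CTCF reference sites of the genome the Pass libraries called 85.6% ± 9.35 (SD, n = 14), the Low pass libraries 46.3% ± 1.19 (SD, n = 2) and the Fail libraries 1.64% ± 2.61 (SD, n = 7).

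For TAL1 the percentage was 87.5% ± 12.2 in Pass libraries (SD, n = 10) and 27.2% ± 24.3 in the others (SD, n = 9), a difference of 60.3 points. The 4 Low pass libraries called 55.6%, 55.6%, 44.4% and 44.4% of these sites, and the Fail libraries 33.3%, 11.1% and 3 times 0%. Over all TAL1 reference sites of the genome the Pass libraries called 81.9% ± 15.2 (SD, n = 10), the Low pass libraries 36.6% on average (25.2% to 57.0%, n = 4) and the Fail libraries 2.58% ± 2.59 (SD, n = 5).

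**Figure D5:**
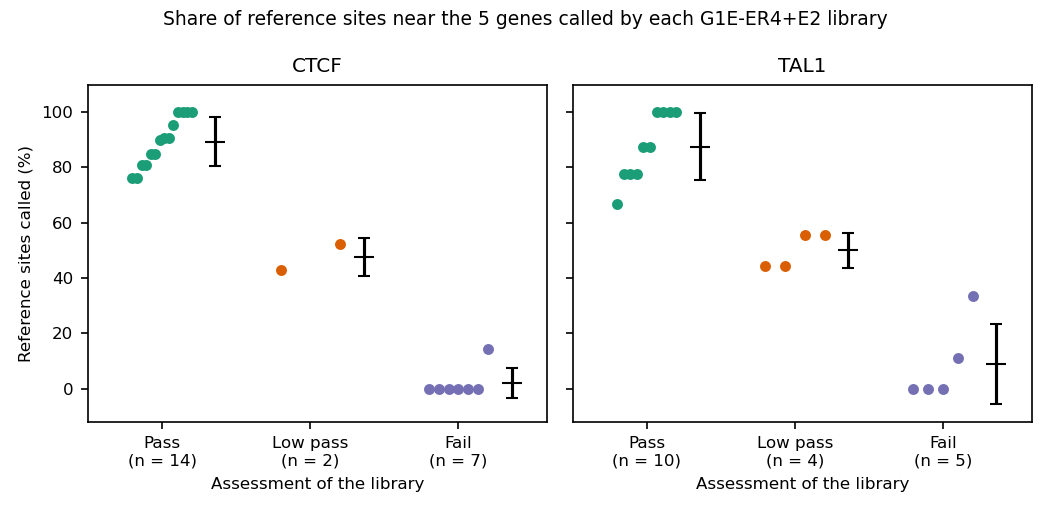
Percentage of the reference sites near the 5 genes called by each G1E-ER4+E2 library, by assessment, for CTCF (left) and TAL1 (right); points are libraries and the mark beside them is the mean with its SD. Pass libraries lie between 66.7% and 100%, Low pass libraries between 42.9% and 55.6%, and Fail libraries between 0% and 33.3%.

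At single sites, Fisher's exact test called 20 of the 24 CTCF sites tested, all more often in Pass libraries, where 51.4% of 26049 sites in the genome were called, 51.2% more often in Pass libraries and 0.188% less often. At an unadjusted p under 0.05 there were 21 of 24, against 59.1%. The Klf1 coding exon site was called in 14 of 14 Pass libraries against 1 of 9 others (Fisher's exact test, adjusted p = 0.00017). The Nfe2 site at 8.0 kb and the E2f2 site at 27.7 kb were found in 3 of 9 others (Fisher's exact adjusted p = 0.00241 for each). For TAL1 the same test called 4 of the 16 sites tested, against 37.4% of 8725 in the genome and 0.0115% in the other direction. At an unadjusted p under 0.05 there were 8 of 16, against 49%. The 4 that passed after adjustment were the 3 Foxo3 sites, called in 10, 9 and 10 of 10 Pass libraries against 0, 0 and 2 of 9 (Fisher's exact adjusted p = 0.00128, 0.00196 and 0.00564), and the Klf1 start with 10 of 10 against 4 of 9 (adjusted p = 0.029, Fisher's exact test). The Klf1 call was lost when any 1 of the 10 Pass or 5 Fail libraries was left out, in 15 of 19 such fits, with adjusted p from 0.0582 to 0.0733. The 2 strong Nfe2 sites and the E2f2 site did not pass, with peaks in 6, 5 and 5 of the 9 other libraries, against all 10 Pass libraries.

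All 4 Low pass TAL1 libraries called 4 of the 9 TAL1 reference sites, against 18.4% in the genome, and these were the 4 with the highest median percentiles, at Nfe2 (2), E2f2 and Klf1. No Low pass or Fail library called 4 others, against 38.3%. A Fail library called 3 of the 9, against 9.04%. For CTCF the 2 Low pass libraries both called 7 of 21, against 31.3%, no Low pass or Fail library called 7, against 37.9%, and a Fail library called 3, against 9.97%. Fail libraries called 5 of the 46 CTCF sites. The sites 10.5 and 17.9 kb downstream of the Nfe2 start were called by 1 Fail library of undetected chromatin length and 17343 peaks alone, at 13.9 and 15.7-fold, and neither held a match to the matrix. The other 3 calls belonged to 1 Fail library of 196 bp chromatin, at Nfe2 +8.0 kb (10.7-fold), E2f2 +17.2 kb (11.4-fold) and E2f2 +27.7 kb (8.85-fold), each holding a match.

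TAL1 and CTCF sites were mostly apart. Of the 9 TAL1 reference sites, 3 overlapped a CTCF site that some Pass library called, against 11.4% in the genome, and 1 overlapped a CTCF reference site, against 5.26%. The last was the weak site in Copz1. The other 2 CTCF sites, at the Nfe2 start (iMK, 8.93-fold) and in Foxo3 (ERY, 7.35-fold), each rested on 1 primary library. Of all 19 TAL1 sites, 4 overlapped a CTCF site of a Pass library, against 9.77%, and 2 a CTCF reference site, against 4.57%.

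For other genes of the pathway, the same window of gene body and 50 kb on either side was searched for reference sites. Of 16 other erythroid regulators (among them Gata1, Tal1, Zfpm1 and Gfi1b), all 16 had a TAL1 reference site, with a median of 2, and 14 had one called in every Pass library, against 17.3% of all protein-coding genes. Zfpm1, which encodes the GATA1 cofactor FOG1, held 9 and Cbfa2t3, which encodes the corepressor ETO2, held 8. Of 15 partners and relatives of the 5 genes, 9 had one, among them the small MAF genes Mafg (1) and Mafk (2) and the repressor gene Bach1 (1), while Klf2, Klf4, Klf6, Foxo1, E2f4 and Ctbp2 had none. Of all 21911 protein-coding genes 31.8% had one. A CTCF reference site was found for all 16 regulators and 13 of the 15 relatives, against 68.2% of all genes, and longer genes have wider windows.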

How the data were processed

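Peak lists of 53 ChIP-seq libraries were analysed; the 12 input samples were not used here. The authors mapped reads with Bowtie (version 1.0.0 in the submitters' processing notes, which also name bcl2fastq 1.8.4) to mm10 and called peaks per library with MACS. For most G1E-ER4+E2 libraries the control was a composite input pooled from several libraries of the line, and the control of the sorted cells is not given in the sources used here. The deposited fold enrichment is a ratio over input, and the deposited −log10 p-value is that of the peak caller. A column with the caller's false discovery rate was not used. Read depth is not given, so precision rests on the number of libraries. From these lists sites were merged, annotated with GENCODE release M21 on GRCm38 (no peak on the 21 chromosomes compared ended beyond the reference) and tested in Python 3.11.15 with scipy 1.17.1: Fisher's exact test per site over sites called in at least 2 libraries, with Benjamini-Hochberg adjustment over the genome, and an exact permutation test over libraries for the number of sites. The planned permutation tests of reference sites called by assessment are not reported, because the sites were chosen in Pass libraries. On simulated calls the site test recovered 97.5%, 94.5% and 92% of 200 changed sites in the line-against-primary (26323 sites), CTCF assessment (26323 sites) and TAL1 assessment (11581 sites) comparisons. A changed site was simulated as called in nearly all libraries of one group and nearly none of the other. Recovery of smaller differences was not simulated.

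A percentile is the share of a library's peaks that are no stronger by fold. The CTCF matrix, 19 bp wide, began from a CTCF consensus and was learned from the 2000 strongest peaks of an LSK library outside the windows of these genes. The genome shares of sites with a match may therefore include sites used for learning. A match had p under 0.0001 per position. Named sites were those called in at least 50% of the Pass libraries of their class, at a member's start, passing a Fisher test, or called in a Fail library; others are given after their values were seen. One TAL1 library of 221 bp chromatin has an antibody label naming CTCF and was grouped by its title. Labels do not say whether libraries came from separate cultures, while the tests treat them as independent, so p-values cover only these libraries. The genes, lists and tests were chosen with earlier results of these data known. Alternatives covered the peak threshold, the merging rule, the window, the reference share, the assessment groups and leaving out each library.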

Additional observations from a re-analysis of the deposited data

Results flagged for a closer look

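Among 29 sets of 4 to 10 library values, 4 held a library whose gap to the nearest other exceeded Dixon's 95% limit. Chance alone passes this limit in about 1 of 20 independent sets. The sets here share libraries, and fold and percentile of one site form separate sets, so the 4 cannot be set against that chance rate. The Fail CTCF library of 196 bp chromatin called 14.3% of the reference sites, while the other 6 Fail CTCF libraries called 0%. With all other values at 0, any value above 0 passes the rule, so the chance rate does not apply to this set. Over all CTCF reference sites of the genome this library called 4.69%, and the Fail library of 194 bp chromatin 6.14%. The Pass TAL1 library of 269 bp chromatin placed the E2f2 site at percentile 88.1, with the other 9 between 96.3 and 99.2, and the Klf1 start at percentile 84.9, with the other 9 between 91.4 and 97.4. The Pass TAL1 library of 298 bp chromatin, which had the longest TAL1 list, gave 26.6-fold at the Foxo3 site 29.4 kb into the gene, with the other 8 libraries that called it between 6.73 and 16.5-fold.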

How the results depend on the processing

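No paired analysis was possible because the labels number libraries individually and give no number that is shared between groups of one comparison. The difference in the percentage of CTCF reference sites called, whose direction the choice of sites fixes, was 73.7 to 87.3 points in 7 alternatives and 74.1 to 82.2 with each library left out. For TAL1 the ranges were 60.3 to 78.6 points in 7 alternatives and 46.6 to 63.9 with each library left out. The difference in CTCF sites per library between the line and primary cells stayed below 0 and unpassed in 6 alternatives (-4.04 to -0.611 sites, p 0.0921 to 0.634) and with each library left out (-3.20 to -0.321, p 0.183 to 0.90). The number of CTCF sites that differed between assessments was 20, and 20 to 21 with each library left out. It became 13 with peaks of −log10 p of at least 10 alone (18 tested), against 7830 of 15228 sites in the genome. It was 10 with a 20 kb window (12 tested) and 43 with a 100 kb window (50 tested), against 13392 of 26049 for both. The number for TAL1 was 4, and 3 to 4 with each library left out. It became 10 with a 100 kb window (24 tested), against 3260 of 8725 sites in the genome. The number that differed between the line and primary cells was 0, and 0 with each library left out. It became 2 with Pass and Low pass libraries together (36 tested), against 4261 of 35283 sites in the genome. Windows change how many sites are tested, and for the strict threshold and the added libraries the cause was not tested. A missing peak cannot be told from too little depth, 5 of the 8 primary cell types have 1 library, and TAL1 was measured in 1 line.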
